A study of Mus musculus with 4 samples.

Results

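The 10 genes described here, Cdh1, Epcam, Cldn4, Cldn6, Cldn7, Ocln, Tjp1, Pard3, Pard6b and Podxl, build the junctions, the polarity and the lumen of epithelia. They were taken as a list of symbols, and each was matched by its Ensembl identifier to 1 of the 47885 rows of the gene table. All 10 were among the 15563 genes with enough counts to be tested. No exon of any of them overlaps another annotated gene.

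Gene counts came from 4 single whole mouse embryos of the C57BL/6 strain at embryonic day 5.5. The WT group held 2 embryos labelled Mettl14+/+ and the KO group held 2 embryos labelled Mettl14-/-, each sequenced as its own library. Genotype was read after sequencing, from qPCR for Mettl14 on the amplified cDNA, and embryos with the transcript became controls, so a heterozygous control cannot be told from a homozygous one. Which part of the gene is deleted is not stated.

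An epithelium holds its cells together with adherens junctions, built on the cadherin encoded by Cdh1, and seals the space between them with tight junctions, whose strands are made of claudins. The PAR complex marks the apical side, and there a lumen can open. In the mouse embryo soon after implantation the epiblast turns into such an epithelium and opens the proamniotic cavity, while the visceral endoderm and the extraembryonic ectoderm around and above it are epithelia as well. Mettl14 encodes the partner of Mettl3 in the enzyme that writes N6-methyladenosine (m6A) on RNA, and the study asked how its loss affects the epiblast as it matures.

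Promoters are shown first, for the 3 genes whose KO and WT embryos did not overlap in the values below. Capitals mark CAGGTG or its reverse complement CACCTG, the E-box bound by repressors of the Snail and ZEB families, which are known to silence epithelial genes. The windows run from 250 bases before to 50 bases after the RefSeq start on GRCm38.p6, on the strand of the gene.
Cldn6, chr17:23679115-23679414, plus strand: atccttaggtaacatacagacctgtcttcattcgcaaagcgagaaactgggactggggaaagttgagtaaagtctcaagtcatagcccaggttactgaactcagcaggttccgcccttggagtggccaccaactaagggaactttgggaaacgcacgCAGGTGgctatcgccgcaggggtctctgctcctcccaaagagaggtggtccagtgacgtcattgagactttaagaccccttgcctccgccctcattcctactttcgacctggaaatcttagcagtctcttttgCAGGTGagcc
Cldn4, chr5:134946885-134947184, minus strand: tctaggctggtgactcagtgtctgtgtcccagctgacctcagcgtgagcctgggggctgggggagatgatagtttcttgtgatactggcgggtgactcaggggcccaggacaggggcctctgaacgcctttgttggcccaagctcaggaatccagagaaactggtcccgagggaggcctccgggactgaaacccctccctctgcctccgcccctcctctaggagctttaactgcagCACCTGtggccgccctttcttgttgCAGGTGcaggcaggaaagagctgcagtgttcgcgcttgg
Epcam, chr17:87635729-87636028, plus strand: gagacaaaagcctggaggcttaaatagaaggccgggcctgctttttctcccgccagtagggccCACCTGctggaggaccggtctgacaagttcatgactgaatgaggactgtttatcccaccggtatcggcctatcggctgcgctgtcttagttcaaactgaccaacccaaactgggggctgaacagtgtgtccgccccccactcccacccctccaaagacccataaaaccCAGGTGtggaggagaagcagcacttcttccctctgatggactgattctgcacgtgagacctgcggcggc
The E-boxes begin at -93 and 40 in Cldn6, at -14 and 11 in Cldn4 and at -187 and -19 in Epcam, counted from the start of transcription. For the 8 genes with a window in the table, 8 of their 11 windows held at least 1 such E-box, against 20.2% of all 32851 windows. The Ocln windows overlap and share an E-box, which is counted in each. By gene, 7 of the 8 held at least 1 in some window, a count with no share over all genes beside it. Cdh1 and Podxl had no window. A match describes the letters and not a bound site.

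Motifs in the transcripts follow. The motif searched was GGACT, written GGACU in RNA, the sequence at which the m6A writer is best known to act, often near the stop codon. For each gene the transcript with the longest coding sequence in GENCODE M21 was searched, and the copy nearest to the stop codon is shown in capitals within 25 bases for the 3 genes above and for Cdh1 and Tjp1, where it lay nearest to the stop codon of all 10 genes.
Cdh1, chr8:106668607-106668631, plus strand: gacgactaggGGACTagcaagtctc
Tjp1, chr7:65297539-65297563, minus strand: tataggaactGGACTaagcaatgtg
Epcam, chr17:87650517-87650541, plus strand: agaagagctcGGACTgcagatgtat
Cldn4, chr5:134945964-134945988, minus strand: aggcaaacccGGACTgtgcaaagtt
Cldn6, chr17:23681488-23681512, plus strand: ctatcatccaGGACTtctacaaccc
Between the stop codon and this copy lie 1 base in Cdh1, 19 bases in Tjp1, 57 in Epcam and 134 in Cldn4, where the copy is in the 3' untranslated region. In Cldn6 the copy lies in the coding sequence, with 218 bases between it and the stop codon. Cldn7 had 0 copies and the other 9 genes had at least 1, against 91.3% of 13202 tested coding genes with at least 1. The median density over all 10 genes was 1.29 per kilobase, beside 1.06 over those coding genes (quartiles 0.632 and 1.55). Methylation was not measured in these libraries, so a copy says nothing about whether the site was methylated.

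Library totals ran from 16108062 to 28698541 counts, and a single count was worth 0.0359 to 0.059 CPM, the unit of counts scaled to a common library size, here with TMM factors. Mettl14 stood at 34.0 and 31.6 CPM in WT against 4.63 and 8.04 CPM in KO (log2 fold change -2.37, SE 0.45, edgeR adjusted p = 0.274; 0.000418 with DESeq2). Since the embryos were classed by this transcript, its level is no independent check of the labels. Each of the 10 epiblast, 10 extraembryonic ectoderm and 15 visceral endoderm markers had counts in all 4 embryos. KO replicate 2 correlated least with the other libraries (Pearson r of log2 CPM across genes 0.879 with WT replicate 1, 0.914 with WT replicate 2 and 0.923 with KO replicate 1). It had the highest total but the fewest genes with a count, 18346. WT replicate 1, with the lowest total, had the most, 21488, and the other libraries had 19603 (WT replicate 2) and 21250 (KO replicate 1). With 2 embryos per group, an exact permutation test of a single gene cannot go below p = 0.333. The p-values below come from the edgeR fit over all genes unless DESeq2 is named. They set the difference between KO and WT against the spread within groups. That spread is estimated from these 4 animals, with information shared over genes.

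No gene of the 10 passed the threshold of an adjusted p of 0.05 in edgeR's quasi-likelihood test, and 0.0% of all 15563 genes tested did so in either direction. At an unadjusted p under 0.05 there was 1 of the 10, beside 7.82% of all genes; it was Cldn6, lower in KO, as were 3.08% of all genes. DESeq2, which called 0.964% of genes higher and 0.578% lower, and limma-voom, which called 0 genes, each called 0 of the 10, as did edgeR with no low-count filter, which called 0.619% of genes higher and 0.398% lower. The KO embryos lay outside the WT range for 3 genes: Cldn4 was above it, and Cldn6 and Epcam were below it. Over all genes tested 19.4% lay above and 18.8% below, so that 3 of 10 is near the background of 38.2%. The median log2 fold change of the 10, KO over WT, was -0.09, beside -0.03 over all genes tested, with 4 of 10 above 0 beside 47.7% of all genes. That median was -0.43 without KO replicate 1 and 0.21 without KO replicate 2. Without KO replicate 1 edgeR called 133 genes higher and 209 lower over the whole table, and 0 of the 10. That fit has 1 KO embryo, which is assumed to vary as the WT pair does, so its calls have no replicate in KO.

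**Figure D1:**
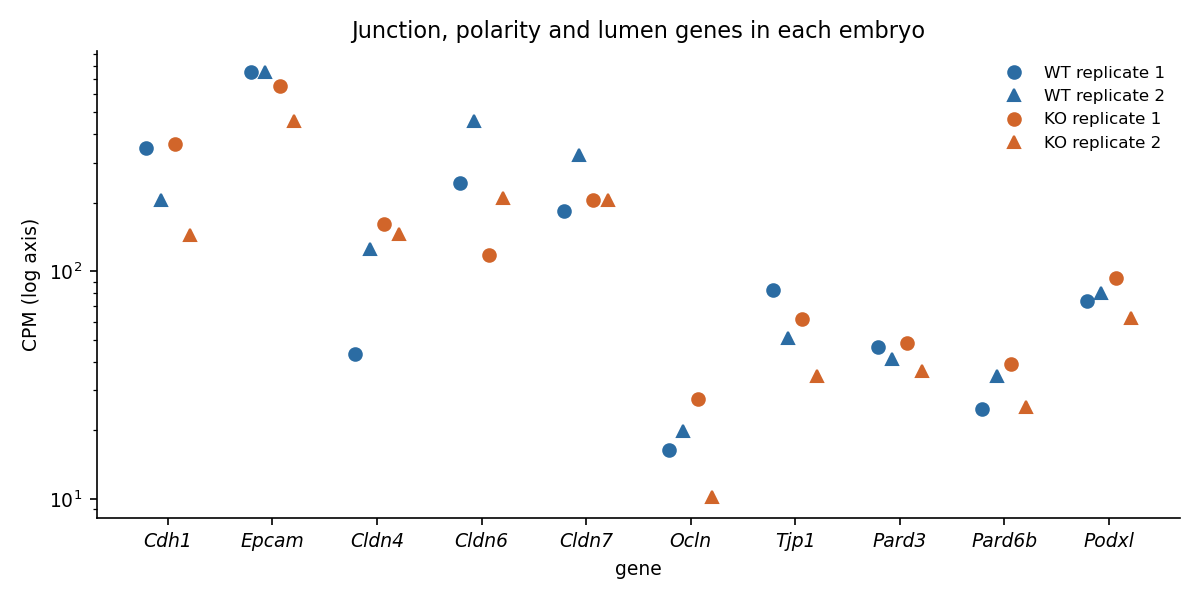
CPM of each of the 10 genes in the 4 embryos, on a log axis; circles are replicate 1, triangles replicate 2, blue WT and orange KO. Cldn6 and Epcam have both KO embryos below both WT embryos and Cldn4 has both above, while in the other 7 genes the groups overlap.

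Dividing CPM by kilobases of exon put the genes on one scale. Epcam had the highest level, at 297 ± 62.4 (SD, n = 4 embryos), above 98.4% of tested coding genes. Cldn6 followed at 149 ± 83.0, Cldn7 at 118 ± 32.3, Cldn4 at 65.3 ± 28.8 and Cdh1 at 57.8 ± 23.2. The other 5 genes were lower. Podxl had 14.1 ± 2.33, Pard6b 9.12 ± 2.07, Tjp1 7.37 ± 2.59, Ocln 4.37 ± 1.71 and Pard3 2.97 ± 0.364, which was above 46.6% of coding genes. The ranges of neighbours in this order overlapped over the 4 embryos, except at the steps from Cldn7 to Cldn4 and from Cdh1 to Podxl. Epcam was nevertheless above Cldn6 in all 4 embryos and Podxl above Pard6b in all 4. With the longest transcript as the length, Cldn7 had 172 and came before Cldn6, and Pard3 had 7.42 and came before Ocln.

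Cdh1 encodes E-cadherin, the adhesion receptor of the adherens junction (ENSMUSG00000000303, chromosome 8, 106603351 to 106670246 on mm10). It stood at 346 and 206 CPM in WT replicates 1 and 2 and at 361 and 145 CPM in KO replicates 1 and 2. The groups overlapped fully: the highest and the lowest embryo were both KO. Its log2 fold change was -0.13 (SE 0.46, 2 embryos in each group), at an edgeR adjusted p of 0.98. It stood at 0.29 without WT replicate 1 and at 0.40 without KO replicate 2, so that its sign rests on single embryos. Replicate 2 minus replicate 1 was -0.75 on the log2 scale in WT and -1.32 in KO, both larger than the difference between the groups. Replicate 2 was below replicate 1 in both groups for 34.3% of all genes tested. Cdh1 has 4574 exon bases, and in the 5159 genes with 4000 to 8000 the median of that difference was -0.0016 in WT and -0.09 in KO. In genes with over 8000 exon bases it was -0.35 and -0.43 (2370 genes), and in genes with 2000 to 4000 it was 0.20 and 0.17 (4613 genes).

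The partners of E-cadherin gave no call either. The catenin gene Ctnnb1, which links the cadherin tail to signalling and to actin through the alpha-catenin gene Ctnna1, had 276 and 223 CPM in WT against 200 and 180 in KO (log2 fold change -0.39, SE 0.29; 759 exon bases shared with Ulk4 on the opposite strand), and Ctnna1 differed by 0.01 (SE 0.34). In the adherens junction list 13 of 14 genes were tested and 0 passed by edgeR, with 9 above 0 and a median of 0.17. By the smallest unadjusted p the list was led by Vcl, vinculin, which reinforces junctions under tension, with 11.8 and 9.51 CPM in WT against 39.3 and 23.9 in KO (1.56, SE 0.44, adjusted p = 0.43). Its exons overlap those of Ap3m1 on the opposite strand over 2090 bases, where reads of either gene may have been shared or left out. Cdh2, N-cadherin, which replaces E-cadherin in mesenchyme, had 13.7 and 14.9 CPM in WT against 4.77 and 5.09 in KO (-1.53, SE 0.46, adjusted p = 0.477). Nectin2, a nectin of nascent junctions, differed by 0.67 (SE 0.37). Both KO embryos were above both WT embryos for Vcl and Nectin2 and below them for Cdh2.

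Epcam encodes an adhesion molecule of early embryonic and simple epithelia that binds and stabilises claudins (ENSMUSG00000045394, chromosome 17, 87635979 to 87651129). It stood at 750.5 and 749 CPM in WT against 648 and 459 CPM in KO. Both KO embryos were lower than the WT pair, which was nearly equal, and KO replicate 2 was the lowest. The fitted log2 fold change was -0.44 (SE 0.28, edgeR adjusted p = 0.793), -0.63 without KO replicate 1 and -0.20 without KO replicate 2.

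EPCAM is cut by the membrane protease matriptase, the product of St14, which the inhibitors encoded by Spint1 and Spint2 hold in check. Of the 7 genes in that list, which includes Epcam and Cldn7, 0 passed by edgeR, and the median was 0.08. Spint1 had 57.5 and 83.8 CPM in WT against 110 and 125 in KO (0.74, SE 0.34, adjusted p = 0.679). St14 had 15.4 and 24.5 CPM in WT against 32.01 and 26.9 in KO (0.56, SE 0.41). Spint2 had 357.5 and 488 CPM in WT against 368 and 378 in KO (-0.18, SE 0.29), with overlapping groups. Both KO embryos were above the WT range for St14 and Spint1, as for 19.4% of all genes tested, but not for Spint2.

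Of the 10 genes, Cldn6 and Cldn4 differed most between embryos, by 3.87-fold and 3.72-fold from the lowest to the highest. Cldn6, a claudin of early embryonic epithelia (ENSMUSG00000023906, chromosome 17, 23679249 to 23682446), stood at 244 and 456 CPM in WT against 118 and 211 CPM in KO. Both KO embryos were below both WT embryos, though KO replicate 2 came close to WT replicate 1. KO over WT, the log2 fold change was -1.09 (SE 0.41), with an edgeR adjusted p of 0.568 and an unadjusted p of 0.0293. It was -0.57 without WT replicate 2, -0.65 without KO replicate 1 and -1.57 without KO replicate 2, and the adjusted p was 0.276 with DESeq2.

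Cldn4, a claudin of trophectoderm and other barrier epithelia (ENSMUSG00000047501, chromosome 5, 134945119 to 134946934), stood at 43.2 and 126 CPM in WT against 160.5 and 145 CPM in KO. WT replicate 1 was far below the other 3 embryos, while WT replicate 2 was close to the KO embryos. Its log2 fold change was 0.86 (SE 0.48, edgeR adjusted p = 0.759), 0.30 without WT replicate 1 and 1.83 without WT replicate 2. Cldn7, a claudin that binds EPCAM (ENSMUSG00000018569, chromosome 11, 69964779 to 69967885), stood at 184 and 323 CPM in WT against 205 and 207 CPM in KO. The KO embryos lay between the WT embryos. The fitted log2 fold change was -0.30 (SE 0.34, adjusted p = 0.912), and it was 0.17 without WT replicate 2.

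**Figure D2:**
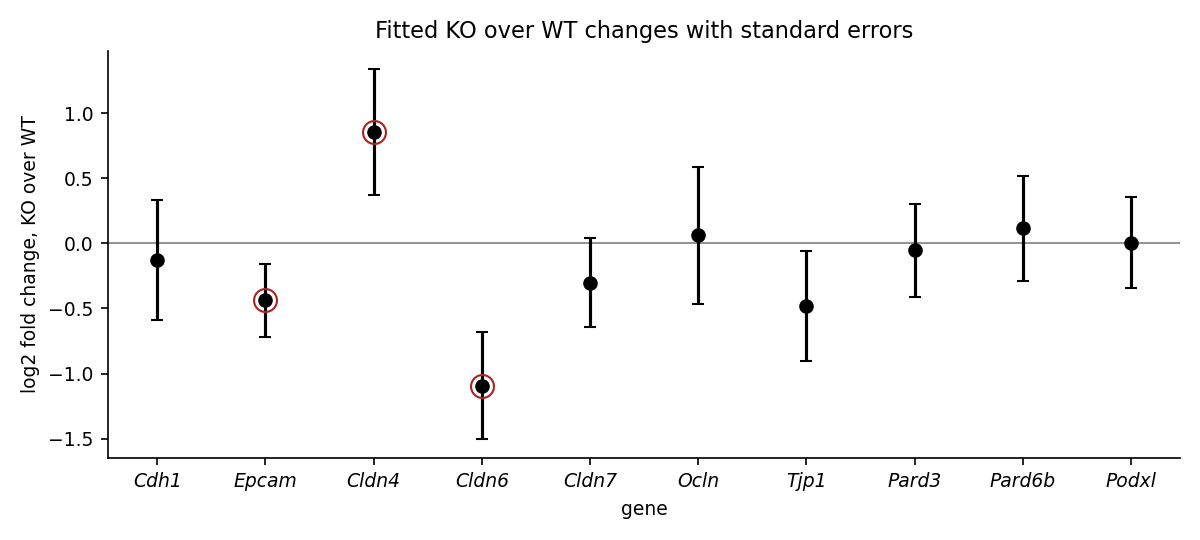
Log2 fold change, KO over WT, of the 10 genes from the edgeR fit, with bars of 1 SE; red rings mark genes whose KO and WT embryos did not overlap in CPM. Cldn6 has the lowest value, -1.09, and Cldn4 the highest, 0.86, and none of the 10 passed the threshold.

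The claudins were then set against each other within each embryo, a view that does not depend on scaling between libraries. It was chosen after the values were seen and carries no test. The table held 23 claudin genes, of which 8 were tested, and Cldn3, Cldn4, Cldn6 and Cldn7 made up 95.5% to 97.8% of all claudin counts. Cldn6 made up 39.3% (exact 95% binomial interval 38.4 to 40.3) and 40.7% (40.0 to 41.4) of the claudin counts in the WT embryos. In the KO embryos its share was 14.95% (14.4 to 15.5) and 25.8% (25.2 to 26.3). The WT embryos were alike in this share although their Cldn6 levels in CPM were not, and both KO embryos were lower.

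Cldn4 made up 6.94% and 11.2% of claudin counts in WT against 20.4% and 17.7% in KO. Cldn3, a barrier claudin of the tight junction list, stood at 122 and 192 CPM in WT against 283 and 237 CPM in KO (log2 fold change 0.73, SE 0.33, edgeR adjusted p = 0.661). Together Cldn3 and Cldn4 made up 26.5% and 28.3% in WT against 56.3% and 46.75% in KO. Shares of a total are tied to each other, so a lower share of Cldn6 by itself raises those of the other claudins. Cldn7 kept to a narrower span, 29.6% and 28.8% in WT against 26.0% and 25.2% in KO. Per kilobase, the ratio of Cldn4 to Cldn6 was 0.167 and 0.261 in WT against 1.29 and 0.652 in KO. Summed claudin CPM overlapped between the groups, with 622 and 1120 in WT against 787 and 818 in KO. Such intervals treat the reads of 1 embryo as independent and leave out the spread between embryos. Reads copied by PCR do not stand for separate molecules, so the intervals are too narrow even for counting error.

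**Figure D3:**
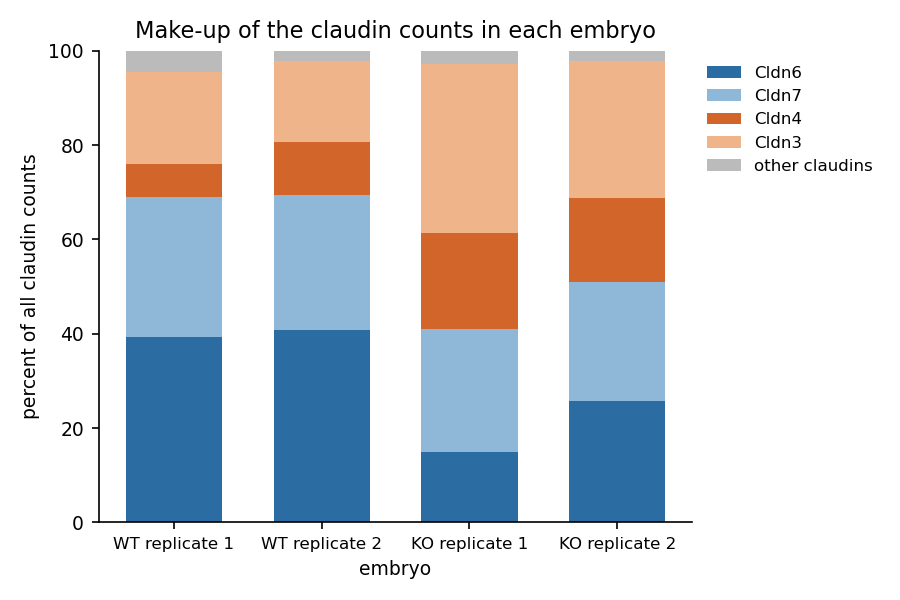
Share of each claudin in all claudin counts of an embryo, in percent, as stacked bars for the 4 embryos. Cldn6 makes up 39.3% and 40.7% in WT against 14.95% and 25.8% in KO, and the Cldn3 and Cldn4 segments together are larger in both KO embryos.

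Summed markers of whole tissues also differed between the embryos, with 0 markers past the adjusted threshold in edgeR's main fit or limma-voom. DESeq2 called 7 visceral endoderm markers lower in KO, Ttr, Apoa1, Apob, Amn, Cubn, Rbp4 and Spink1, and 2 ectoplacental cone and giant cell markers higher, Prl3d1 and Plac1. It also called the parietal endoderm marker Thbd higher and the decidua markers Hoxa10 and Dcn lower, and 0 epiblast, extraembryonic ectoderm or blood and immune markers. The 15 visceral endoderm markers summed to 1690 and 3927 CPM in WT against 1114 and 1201 in KO, with 14 of 15 log2 fold changes below 0, 11 of them at an unadjusted p under 0.05, beside 3.08% of all genes. The 10 ectoplacental cone and giant cell markers summed to 470 and 688 CPM in WT against 1962 and 1107 in KO, with 6 of 7 tested markers above 0, all 6 at an unadjusted p under 0.05, beside 4.74% of all genes, and Prl2c2 and Tpbpa at 0 in all embryos. The 10 extraembryonic ectoderm markers summed to 2684 and 2695 CPM in WT against 2689 and 1824 in KO. Rhox5 alone, most of that sum, had 1930 and 1894 CPM in WT against 1542 and 1092 in KO. Of these 10 markers 5 were above 0, and 0 had an unadjusted p under 0.05. The 10 epiblast markers summed to 2960 and 2832 in WT against 2210 and 3259 in KO, most of it Dnmt3b and Utf1. Among them 5 were above 0, and 2, Otx2 and Dnmt3b, were lower in KO at an unadjusted p under 0.05. Maternal decidua markers summed to 19.2 and 27.6 CPM in WT against 4.91 and 5.56 in KO, with Hoxa11 at 0 in all embryos. All 5 tested decidua markers were below 0, 3 of them at an unadjusted p under 0.05. Blood and immune markers summed to 5.31 and 4.17 CPM in WT against 5.71 and 5.06 in KO. The 10 parietal endoderm markers summed to 352 and 1016 CPM in WT against 500.2 and 563 in KO. At an unadjusted p under 0.05, 2 of these were higher and 1 lower in KO. WT replicate 2 was highest for Cldn6 and Cldn7, and for the sums of visceral endoderm, parietal endoderm and maternal decidua markers. It was narrowly highest for the extraembryonic ectoderm sum, most of which was Rhox5. In whole embryos fewer cells of a type and less RNA per cell cannot be told apart, and the part of these tissues in the claudin values was not tested.

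**Figure D4:**
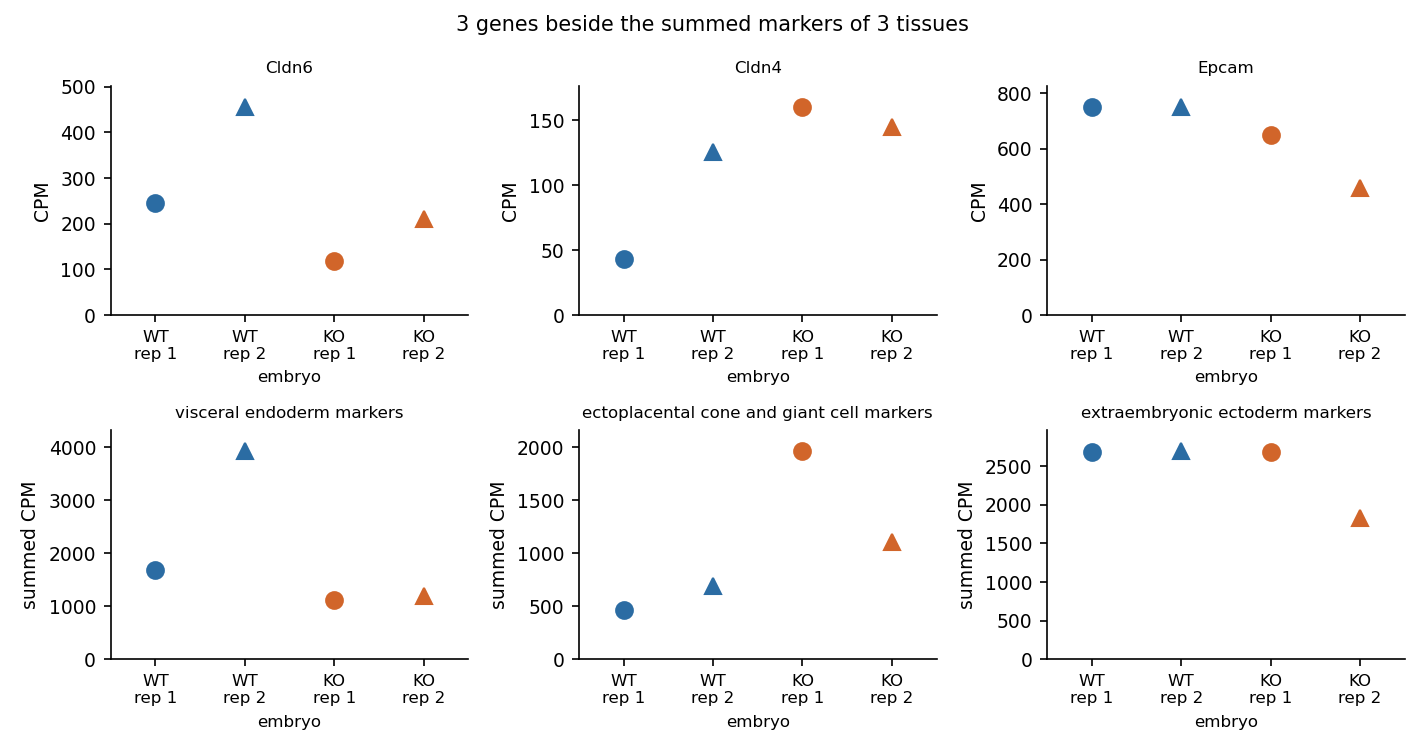
CPM of Cldn6, Cldn4 and Epcam and summed CPM of the marker lists of 3 tissues, each embryo as 1 point on axes from 0 (circles replicate 1, triangles replicate 2, blue WT, orange KO). WT replicate 2 is highest in Cldn6 and in the visceral endoderm sum, and narrowly in the extraembryonic ectoderm sum, most of which is Rhox5. It was also highest in the parietal endoderm and maternal decidua sums, which are not drawn. The KO embryos are highest in both Cldn4 and the ectoplacental cone sum.

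Ocln encodes occludin, a membrane protein of tight junctions (ENSMUSG00000021638, chromosome 13, 100496507 to 100552718). It stood at 16.3 and 19.8 CPM in WT against 27.5 and 10.2 CPM in KO, so that the KO embryos lay on either side of the WT pair. KO over WT, the log2 fold change was 0.06 (SE 0.53, edgeR adjusted p = 0.991), and it was -0.74 without KO replicate 1. Tjp1 encodes the cytoplasmic scaffold that ties claudins to actin (ENSMUSG00000030516, chromosome 7, 65296165 to 65527781). It stood at 82.9 and 51.1 CPM in WT against 61.6 and 34.6 CPM in KO. Replicate 2 was the lower embryo in both groups, as for Cdh1, and the groups overlapped. Its log2 fold change was -0.48 (SE 0.42, adjusted p = 0.873), and it was -0.09 without WT replicate 1.

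Of 26 genes in the tight junction list, 22 were tested, 0 passed by edgeR, 9 were above 0 and 13 below, and the median was -0.06. Cldn5, the claudin of endothelium, had 18 and 19 counts in WT against 0 counts in each KO embryo (log2 fold change -7.47, SE 2.16, edgeR adjusted p = 0.482). Against a floor of 3 counts over the KO group the WT mean was 17.0-fold higher. That figure allows for no error in the WT counts and no spread between embryos, so it is not a bound. Amot, angiomotin, a junctional regulator of the Hippo pathway, had 116 ± 22.4 CPM in WT against 44.3 ± 25.9 CPM in KO (SD, n = 2 each), both KO embryos below both WT embryos (log2 fold change -1.39, SE 0.46, edgeR adjusted p = 0.517). Without KO replicate 1, with a single KO embryo and the spread taken from the WT pair, Amot stood at -2.07 with an edgeR adjusted p of 0.0442. Jam3, a junctional adhesion molecule, had 15.5 and 15.2 CPM in WT against 28.9 and 38.5 in KO (1.13, SE 0.39, adjusted p = 0.524), and its exons overlap an antisense gene over 1159 bases.

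Pard3 encodes the scaffold that brings the PAR complex to the apical junction (ENSMUSG00000025812, chromosome 8, 127063893 to 127612286). It stood at 46.5 and 41.4 CPM in WT against 48.2 and 36.5 CPM in KO, the narrowest span of the 10 genes, with 1.32-fold between the highest and the lowest embryo. The median of that span was 2.08-fold over the 10 genes and 2.26-fold over all genes tested. The fitted log2 fold change was -0.05 (SE 0.36, edgeR adjusted p = 0.99), and it was 0.14 without KO replicate 2 and 0.04 without WT replicate 1. Pard6b encodes an adaptor between Cdc42 and the atypical protein kinase C (ENSMUSG00000044641, chromosome 2, 168081004 to 168101203). It stood at 24.9 and 34.5 CPM in WT against 39.2 and 25.3 CPM in KO, with overlapping groups. KO over WT, the log2 fold change was 0.12 (SE 0.40, adjusted p = 0.979), and it was -0.15 without KO replicate 1 and -0.09 without WT replicate 1.

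Pard6b has close relatives in Pard6a and Pard6g. Its share of the counts of these 3 genes was 47.4% (exact 95% binomial interval 44.1 to 50.8) and 52.95% (50.1 to 55.8) in WT and 46.7% (44.35 to 49.0) and 29.4% (27.55 to 31.2) in KO. KO replicate 2 was below the other embryos, and KO replicate 1 was close to WT replicate 1. Pard6g had 17.2 and 16.7 CPM in WT against 31.9 and 36.5 in KO (1.01, SE 0.37, edgeR adjusted p = 0.552), both KO embryos above both WT embryos. Pard6a had 10.5 and 13.9 CPM in WT against 12.9 and 24.4 in KO (0.61, SE 0.47), and Prkci, the kinase of the complex, had 88.0 and 61.3 CPM in WT against 65.2 and 40.7 in KO (-0.50, SE 0.39). Of the 18 apical PAR and Crumbs genes 15 were tested, 0 passed by edgeR, 7 were above 0 and the median was -0.05.

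The basolateral polarity list, which opposes the PAR complex, had 13 of 13 genes tested and 0 passed by edgeR, with 7 above 0 and a median of 0.10. Its genes of smallest unadjusted p were Mark1, a polarity kinase, at 0.88 (SE 0.67), and the Lgl genes Llgl2 and Llgl1 at -0.55 (SE 0.43) and 0.41 (SE 0.39).

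Podxl encodes podocalyxin, a sialomucin that coats apical membranes and lines nascent lumens (ENSMUSG00000025608, chromosome 6, 31519488 to 31563981). It stood at 74.1 and 80.3 CPM in WT against 92.9 and 62.2 CPM in KO. The WT embryos lay within the KO pair, and the group means were 77.2 ± 4.39 CPM for WT and 77.6 ± 21.7 CPM for KO (SD, n = 2 each). Its log2 fold change was 0.01 (SE 0.35, edgeR adjusted p = 0.999), from -0.23 without KO replicate 1 to 0.28 without KO replicate 2. A p above the threshold does not show that the groups were equal.

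Of 23 genes in the apical domain and lumen list 18 were tested, 0 passed by edgeR, 9 were above 0 and 9 below, and the median was -0.01. Vil1, villin, which bundles actin in brush borders, had 64 and 207 counts in WT against 15 and 0 in KO (3.77 and 11.1 CPM against 0.708 and 0 CPM). Its fitted log2 fold change was -4.42 (SE 1.37, edgeR adjusted p = 0.488), and it passed with DESeq2 (adjusted p = 0.00942) and with no low-count filter (edgeR adjusted p = 0.000284). Without KO replicate 1 the only KO embryo had 0 counts of it. Msn, moesin, of the ezrin family that anchors apical membrane to actin, had 73.9 and 64.8 CPM in WT against 106 and 96.8 in KO (0.55, SE 0.32). Ezr, ezrin itself, had 222 and 297 CPM in WT against 372 and 245 in KO, with overlapping groups, and Rab35, a small GTPase of lumen initiation, differed by 0.59 (SE 0.35). Ilk is listed at 0 in all 4 embryos, and 2106 of its 2744 exon bases overlap Taf10 on the opposite strand. How the authors counted reads in overlapping genes is not stated, so a count there, 0 included, may leave out shared reads. This also touches Vcl, Jam3 and Ctnnb1 and, with shorter overlaps, Dsp, Elf3, Msn, Nectin2, Esrp1, Llgl1, Vil1 and Cldn3, among others. In Ctnnd1, which enters only the list counts, 4482 of 7319 exon bases overlap another gene on the same strand.

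Desmosomes, gap junctions and the regulators of the epithelial state gave no gene past the edgeR threshold. Of 11 desmosome genes 10 were tested, 8 of them above 0, with a median of 0.14. Dsp, the desmosomal linker to keratin, had 35.6 and 32.5 CPM in WT and 24.4 CPM in KO replicate 2, while KO replicate 1 was high and took the KO mean to 62.2 ± 53.4 CPM (SD, n = 2). Its log2 fold change was 0.87 (SE 0.59), and -0.40 without that embryo. Dsc2, a desmosomal cadherin, likewise had 43.5 CPM in KO replicate 1 and 8.14 in KO replicate 2, beside 16.2 and 12.2 in WT (0.86, SE 0.70, and -0.72 without KO replicate 1), and Jup, plakoglobin, differed by 0.57 (SE 0.41). All 8 gap junction genes were tested, 6 above 0, with a median of 0.20. Panx1, a pannexin channel, had 7.96 and 20.5 CPM in WT against 32.5 and 38.1 in KO (1.31, SE 0.50, adjusted p = 0.574). The connexin gene Gja4 differed by 0.89 (SE 0.66).

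Transcription factors and mesenchymal genes came next. Snai1, a repressor that binds the E-box shown above, had 2.24 and 3.79 CPM in WT against 9.30 and 9.47 in KO (log2 fold change 1.63, SE 0.55, edgeR adjusted p = 0.524). Of the genes shown with that E-box, Cldn4 was above the WT range in KO, and Cldn6 and Epcam were below it. Cdh1, which had no promoter window, overlapped between the groups. Whether Snai1 acts on any of these genes was not tested. Snai1 is also in the parietal endoderm list, and a whole embryo cannot show whether its transcript lies in the same cells as theirs. Twist1 differed by 1.03 (SE 0.61), with 16.5 CPM in KO replicate 2 and 5.19 to 5.50 CPM in the other embryos, and Vim, vimentin, by -0.64 (SE 0.49). Of the 12 genes of the mesenchymal list 8 were tested, 5 above 0, with a median of 0.15, and 0 passed by edgeR. Among 12 epithelial regulators, of which 7 were above 0 with a median of 0.01 and 0 passed by edgeR, Elf3, an epithelial ETS factor, had 20.4 and 43.9 CPM in WT against 80.1 and 50.3 in KO (1.02, SE 0.46, adjusted p = 0.661). Esrp1, which sets epithelial splicing, had 85.1 and 66.2 CPM in WT against 53.3 and 46.0 in KO (-0.61, SE 0.34). Grhl3, a grainyhead factor of surface epithelia, had 12.6 and 19.99 CPM in WT against 9.02 and 0.466 in KO (-1.79, SE 1.04), and without KO replicate 1, with a single KO embryo and the spread taken from the WT pair, it stood at -5.03 (edgeR adjusted p = 0.00264).

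**Figure D5:**
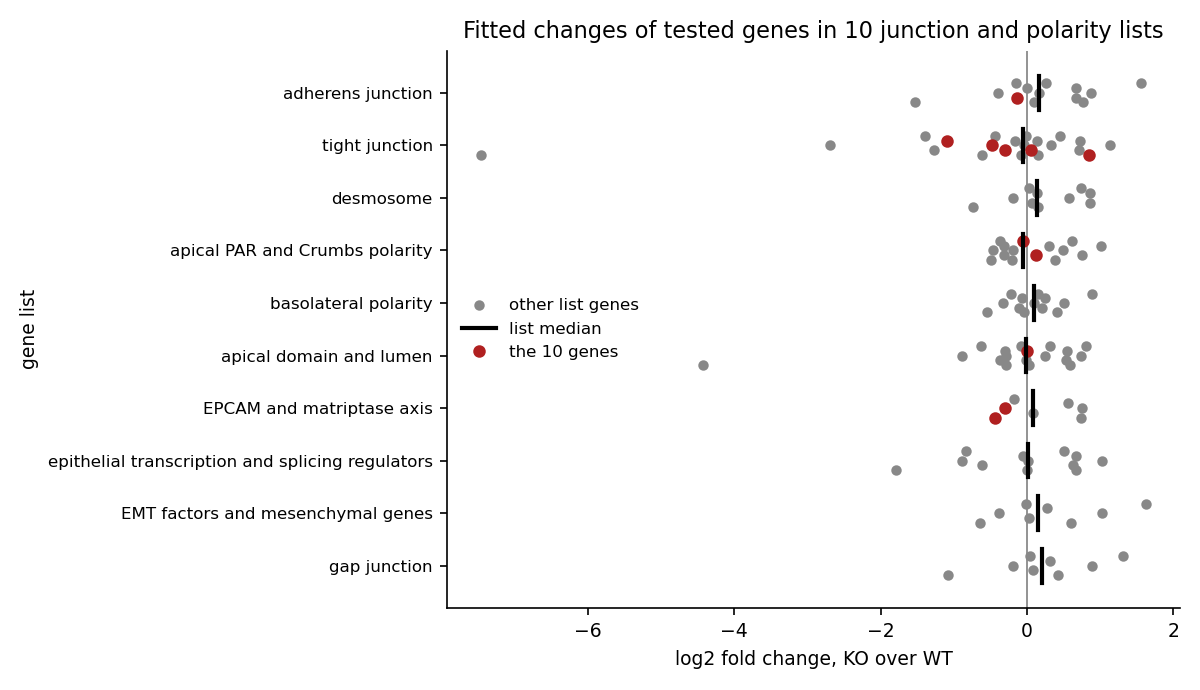
Fitted log2 fold change, KO over WT, of each tested gene in the 10 lists, with the 10 genes in red, other genes in grey and the median of each list as a black bar. The medians run from -0.06 to 0.20, none of the genes shown passed the threshold of the main test, and the point farthest to the left is Cldn5, whose fitted value rests on 0 counts in KO.

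Over all lists 115 genes besides the 10 were tested, 67 above 0 and 48 below, with a median of 0.09. By edgeR 0 of them passed, while at an unadjusted p under 0.05 there were 5 higher and 4 lower, beside 4.74% and 3.08% of all genes. DESeq2 and edgeR with no low-count filter each called 1 of them, Vil1, lower in KO, and limma-voom called 0. The KO embryos lay above the WT range for 24 (20.9%) and below it for 18 (15.7%) of the 115, near the 19.4% and 18.8% of all genes tested.

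The genes whose profile over the 4 embryos was nearest to each of 3 members were sought among 6161 genes with a mean of at least 20 CPM, by the root mean square distance of centred log2 CPM. Cdh1 was nearest to Bdp1 (0.04), Zfp518a (0.04) and March7 (0.05), and Bdp1 had 117 and 67.2 CPM in WT against 127 and 48.6 in KO. Cldn6 was nearest to Insig1 (0.07), Dcaf11 (0.11) and Cth (0.12), and Insig1 had 35.8 and 64.0 CPM in WT against 17.0 and 33.5 in KO. Podxl was nearest to Guf1 (0.02), Trim6 (0.03) and Dhx40 (0.03). The distances are in log2 units and rest on 4 embryos, so they are a description.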

How the data were processed

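Per the labels' protocols, polyadenylated RNA from each of 4 single embryos went through the Smart-Seq v4 chemistry, which does not mark strand, and paired-end sequencing. The authors deposited whole-number read counts per gene without normalisation. The submitters' processing notes name TopHat, Cufflinks and mm10, with neither versions nor roles. How reads were counted, with which annotation and strand setting, is not given in these sources. Symbols, coordinates and exon lengths came from GENCODE M21 on mm10, and promoter windows from RefSeq.

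For KO against WT, edgeR (4.0.16, under R 4.3.3) ran its robust quasi-likelihood F test after TMM scaling and filterByExpr, which was set to a minimum count of 10 and a minimum total of 15. Benjamini-Hochberg adjustment covered 15563 genes. The SE is the absolute log2 fold change over the square root of F. Scripts were tested on simulated data. Alternatives were DESeq2 (1.42.0), limma-voom (3.58.1), other scalings and filters, a replicate block and leaving out each embryo. The members, the 10 pathway lists and the 7 marker lists were chosen with earlier results of these data known. Besides the members and Mettl14, the rule named up to 3 genes per list by smallest unadjusted p and the 3 nearest in profile to Cdh1, Cldn6 and Podxl. Of the genes so named, 2 are not reported here, though list counts include them. Ctnnb1, Ctnna1, Cldn3, Spint2, Ezr and Ilk were named outside it, after their values were seen.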

Additional observations from a re-analysis of the deposited data

How the results depend on the processing

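None of the 10 genes passed in the main fit or under any of the 11 alternative fits. Over all genes, 0 passed with edgeR, limma-voom, RLE scaling, library totals or a minimum of 50 counts in 2 libraries. DESeq2 called 150 higher and 90 lower, and no low-count filter gave 157 and 101. Leaving out 1 embryo, with the spread taken from the other group's pair, gave 14 to 133 higher and 1 to 209 lower. Replicate numbers are not tied to a litter or day by the labels, so they are treated as names. The replicate block gave 52 higher and 19 lower, among them 4 visceral endoderm markers lower and Plac1 higher, with Cldn6 at an adjusted p of 0.0562; over genes, replicate 2 minus replicate 1 in WT had a Pearson r of 0.329 with the same difference in KO. The median of the 10 genes ran from -0.43 to 0.21 with 1 embryo left out.

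Some log2 fold changes turned sign, and the cause was not tested. Ocln stood at -0.14 with limma-voom and at -0.10 with the replicate block. Podxl stood at -0.00139 with DESeq2, -0.0313 with limma-voom, -0.00133 with RLE scaling, -4.32e-05 with at least 50 counts in 2 libraries and -0.0212 with the block. With 1 embryo left out Cdh1 ran from -0.85 to 0.40, Cldn7 from -0.63 to 0.17, Ocln from -0.74 to 0.62, Pard3 from -0.19 to 0.14, Pard6b from -0.15 to 0.41 and Podxl from -0.23 to 0.28. Dsc2 ran from -0.72 to 1.63 and Dsp from -0.40 to 1.56. Mettl14 passed with DESeq2 (-2.36), with no low-count filter (-2.36) and without KO replicate 2 (-2.81, a single KO embryo). The 3 genes without overlap were also found with RLE scaling and with library totals, an alternative chosen after seeing the data. Each of the 10 genes had at least 277 counts in every embryo.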
